A study of Drosophila melanogaster with 11 samples.

Results

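The genes described here encode the dosage compensation complex of Drosophila, which is also called the MSL complex. They were chosen by name: msl-1, msl-2, msl-3, mle and mof, which encode its 5 protein subunits, and roX1 and roX2, its 2 noncoding RNAs. All 7 were found by symbol among the 16509 genes of the deposited tables. The tables come from cultured S2 cells, a hemocyte-like Drosophila line grown in serum-free medium. PolyA RNA-seq was made from 2 libraries labelled as controls for dTet (control 1 and control 2) and from 2 libraries labelled dTet knockdown (knockdown 1 and knockdown 2). dTet encodes the fly Tet dioxygenase, of the enzyme family that oxidises methylcytosine to hydroxymethylcytosine. The hMeRIP-seq lists hold peaks of RNA bound by an antibody against hydroxymethylcytosine in total RNA, with 1 sample of S2 cells carrying a CRISPR edit of yellow (a body colour gene) and 1 carrying a CRISPR edit of dTet. The title of the dTet-edited sample calls it dTet depletion. The knockdown reagent, the extent of that depletion and what the other edit did to yellow are not given in the sources used here. Nothing says that the replicates were separate cultures, so p-values measure only the spread between these libraries, which may be technical. In bulk RNA, fewer cells with a transcript and less of it per cell cannot be told apart.

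In male flies the single X chromosome is transcribed at a raised rate so that its output matches that of the paired autosomes. The MSL complex is known to bind along the male X and to acetylate histone H4 there. msl-2 is the subunit whose protein is made in males and blocked in females, and the roX RNAs are needed for the complex to spread from its entry sites. S2 cells are a male-type line.

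The deposited value of an exon is called signal here: the mean number of reads in its 40-bp bins, multiplied by 1 factor per library. A gene's signal is the mean over its exons, weighted by bins. It is per length, so levels can be set between genes. One read in 1 bin was worth 0.340 and 0.390 signal among the controls, and 0.372 and 0.476 under knockdown; knockdown 2 was thus the shallowest library. The absolute depth is unknown. Control 1 was the least even along genes: the median coefficient of variation over the exons of a gene was 0.896 there and 0.784 to 0.798 in the other libraries (1590 genes). dTet itself had 7.47 ± 0.76 signal among the controls, and 5.74 ± 1.22 under knockdown (SD, n = 2 each). Its log2 change of -0.34 did not pass the test (limma, adjusted p = 0.9995). Both knockdown values lay below both controls, as in 17.4% of the 6050 genes tested. Each library is therefore called by its label. Of 8 hemocyte markers, 7 had a control signal of 1 or more, up to 68.2 for vkg, and NimC1 stood at 0.206. Of 12 markers of neurons, muscle, germline and fat body, elav had a control signal of 1.87 and the other 11 were at 0.271 or below.

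The 2 noncoding RNAs stood at opposite ends of the complex, roX2 highest and roX1 lowest in all 4 libraries, with the protein genes between them. roX2 (X, 11473097 to 11474464, dm3) had a signal of 6.78 and 5.32 among the controls, and 6.51 and 4.63 under knockdown. Its control mean, 6.05 ± 1.03 (SD, n = 2), lay above 86.8% of the 10315 genes with any control signal. roX1 (X, 3751262 to 3756729) had 0.573 and 0.313 signal among the controls, and 0.1999 and 0.339 under knockdown. These are the values of its longest exon, from 3751262 to 3756093, and leave out the rest of the span. Its control mean of 0.443 ± 0.184 (SD, n = 2) lay above 28.6% of those genes. The ratio of roX2 to roX1 was 11.8, 17.0, 32.6 and 13.7 in control 1, control 2, knockdown 1 and knockdown 2.

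Among the protein genes, msl-2 was highest and msl-3 lowest in each of the 4 libraries. msl-2, the RING-finger subunit that nucleates the complex (2L, 3462217 to 3466111), had 4.04 and 3.95 signal among the controls, and 4.56 and 3.85 under knockdown. The ratio of its highest to its lowest library was 1.18 over both exons, and 1.66 over the exon that overlaps no other gene. mle, an RNA helicase that remodels the roX RNAs (2R, 1862361 to 1868282), had 2.34 and 3.31 among the controls, and 2.45 and 2.66 under knockdown. Control 1 and control 2 were thus its lowest and highest libraries. mof, the histone acetyltransferase of the complex (X, 5767872 to 5770885), had 2.16 and 2.77 among the controls, and 2.93 and 1.67 under knockdown. Here the extremes were the pair of knockdown libraries, and the controls lay between them.

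msl-1, the scaffold that holds the other proteins (2L, 18683719 to 18688799), had 1.83 and 2.28 signal among the controls, and 2.34 and 2.21 under knockdown. Control 1 was its low library and the other 3 lay close together. msl-3, a chromodomain protein (3L, 7116312 to 7118632), had 1.08 and 1.90 among the controls, and 1.73 and 1.49 under knockdown. Its control libraries spanned its whole range.

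**Figure D1:**
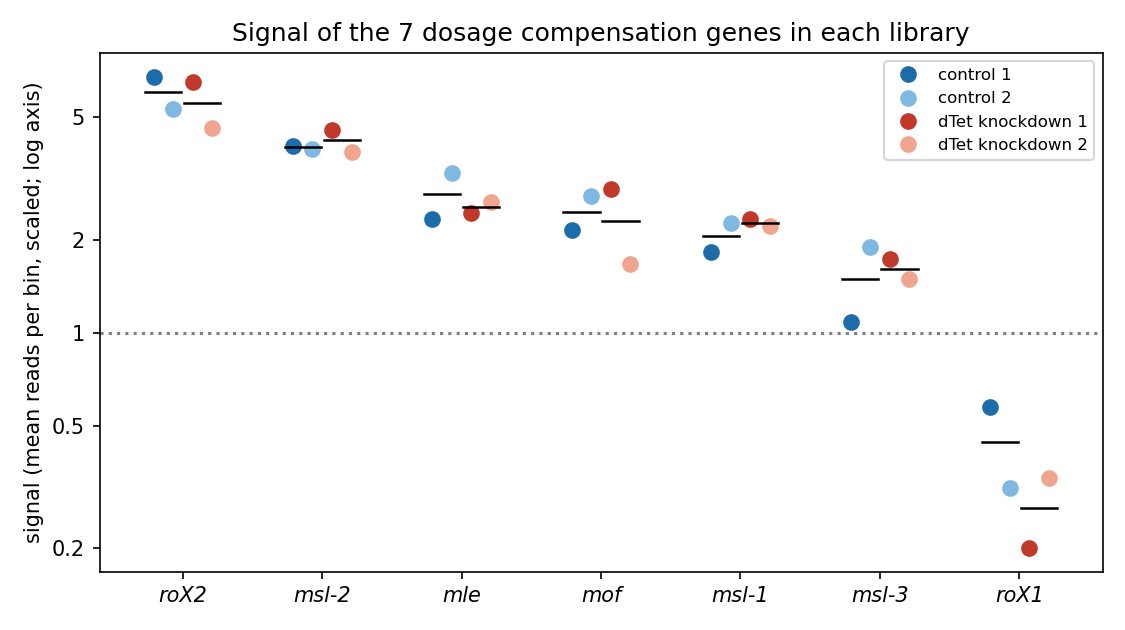
Signal of each gene (log axis) in control 1, control 2, knockdown 1 and knockdown 2, with short lines at the mean of each group (n = 2) and a dotted line at a signal of 1. roX2 and msl-2 lie above the other protein genes in every library, roX1 lies below 1 in every library, and the control and knockdown points of each gene overlap.

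Set in order of control mean, the genes ran roX2, msl-2 (3.996), mle (2.83), mof (2.46), msl-1 (2.06), msl-3 (1.49) and roX1. The libraries of roX2 did not overlap those of msl-2, whose highest value of 4.56 lay just below the lowest roX2 value of 4.63. Those of msl-2 did not overlap those of mle with all exons, but did with the exon free of mir-4971 alone (2.50 to 4.16 signal over the libraries), and those of msl-3 did not overlap those of roX1. The neighbours mle and mof, mof and msl-1, and msl-1 and msl-3 overlapped, so the pooled ranges do not settle their order. Within libraries, mle was above mof in 3 of 4, mof above msl-1 in 3 of 4, and msl-1 above msl-3 in 4 of 4. msl-2 was 1.74 to 2.204 times msl-1 and 2.08 to 3.72 times msl-3, with both of the largest ratios in control 1. The values rest on 163 to 1188 bin reads (the sum over bins of the reads in each) per protein gene and library, on 340 to 698 for roX2 and on 65 to 204 for roX1.

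The position of the reads within the roX genes differed more than the gene values show. The tables list 9 overlapping exons for roX2, and 89.7%, 90.6%, 92.2% and 96.5% of the bin reads of its longest exon fell in a block of 501 bp, from 11473702 to 11474203. In that block the signal was 16.4 and 13.0 among the controls, and 16.1 and 12.02 under knockdown. That is 3.12 to 4.05 times the signal of msl-2. Outside the block the longest exon had 1.11 and 0.80 signal among the controls, and 0.81 and 0.26 under knockdown, by subtraction. The short exon from 11473381 to 11473560 held 18 and 3 bin reads in the controls and 0 in both knockdown libraries. Others nearby were also at 0 in both knockdown libraries: 11473485 to 11473560, inside it, held 7 and 3 bin reads in the controls, and 11473247 to 11473268 held 3 and 1. The exon from 11473381 to 11473431, also inside it, held 9 and 0, and that from 11473097 to 11473156 held 0 and 1. Exons that lie inside another share its reads. All were named after their values were seen, and the share of such exons over all genes was not counted. Counts so low give no fold. With no filter on low signal these exons, in the order named, had unadjusted p of 0.0625, 0.0233, 0.0371, 0.146 and 0.467. None passed (limma, adjusted p = 0.969 for each).

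roX1 has 6 overlapping exons of up to 4831 bp, and 391 bp of it lie in exons of its neighbour ec, whose signal was 1.29 to 2.15. Strand is not given for the counts, so reads there cannot be assigned to either gene. The first 1047 bp of roX1 in genome order, which contain that overlap, held 120 and 64 bin reads among the controls, and 23 and 36 under knockdown. They were 58.8%, 66.0%, 35.4% and 41.9% of the bin reads of its longest exon. In signal the first 1047 bp had 1.57 and 0.961 among the controls, and 0.329 and 0.660 under knockdown. Both knockdown values lay below both controls, as whole genes did in 17.4% of the 6050 tested. The stretch itself was not tested, and the share of such stretches over all genes was not counted. The stretch from 3752309 to 3756093, free of other genes, had 0.300 and 0.136 signal among the controls, and 0.165 and 0.251 under knockdown. There the groups overlapped, and the roX2 block exceeded it 54.5, 95.7, 98.1 and 47.9 times. The exon from 3756053 to 3756457 was listed at 0 in the controls and in knockdown 1 and at 1.56 signal, or 36 bin reads, in knockdown 2. The longest exon ends at 3756093. From there to 3756729, the exon that starts at 3752309 held 8 bin reads in control 1, 0 in control 2 and knockdown 1, and 34 in knockdown 2. This stretch contains most of the exon from 3756053 to 3756457, so the 2 counts share reads. Its reads are not part of the gene's signal.

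**Figure D2:**
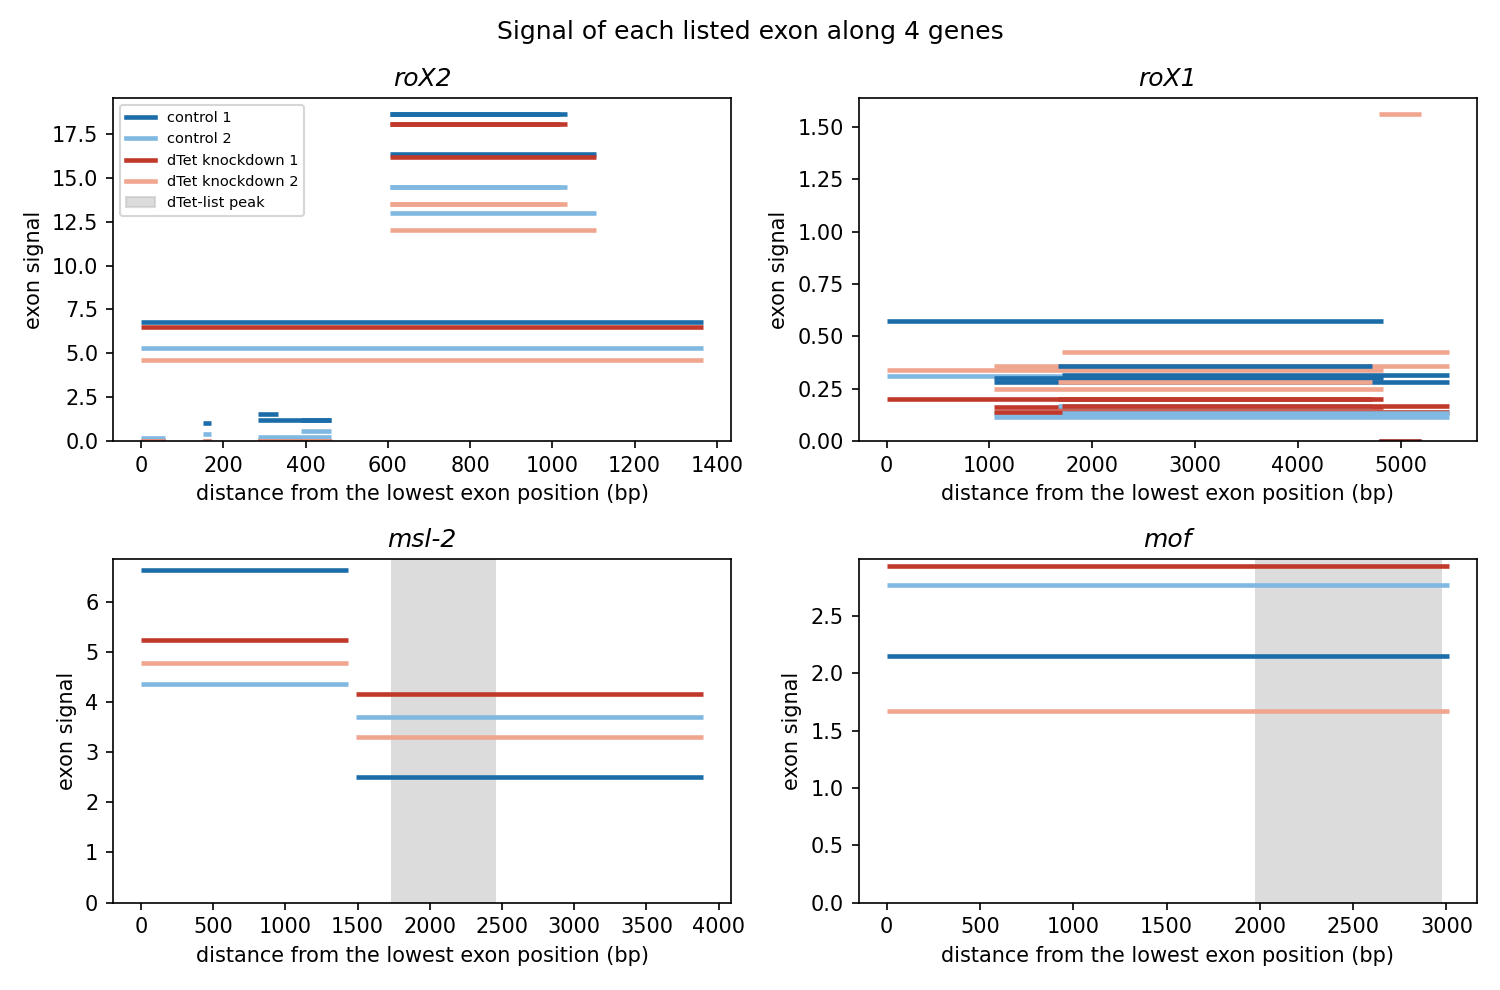
Signal of every listed exon of roX2, roX1, msl-2 and mof in the 4 libraries, drawn as lines over the exon's extent against the distance in bp from the gene's lowest exon position; grey bands mark peaks of the dTet list. The roX2 signal is concentrated in the block near the middle, 1 listed roX1 exon has signal in knockdown 2 alone, and the first msl-2 exon is above the second in each library.

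Within the protein genes, the balance between exons differed among libraries. The first exon of msl-2 in genome order (3462217 to 3463653) had 6.65 and 4.37 signal among the controls, and 5.23 and 4.79 under knockdown, and the second (3463706 to 3466111) had 2.50 and 3.71 against 4.16 and 3.30. The first was 2.66 times the second in control 1 and 1.18 to 1.45 times in the other libraries. The first exon contains the 110-bp microRNA locus mir-4971, whose reads cannot be told apart from those of msl-2. In mle the longest exon (1862361 to 1864972) held 70.7% to 86.4% of the gene's bin reads. The next exon (1865491 to 1866181) had 0.264 signal in control 1 and 1.19 to 2.88 in the other libraries. msl-1 had more signal in its last exon in genome order than in its first, with ratios of 1.26, 2.61, 1.21 and 2.35. These did not follow the groups. They were larger in control 2 and knockdown 2. In msl-3 the exon from 7117500 to 7118057 had 0.583 signal in control 1 and 1.63 to 2.84 elsewhere, and 84 bp of its first exon overlap form3, a gene of signal 0.077 or less. Control 1 thus stood apart at these exons of msl-2, mle and msl-3, but other libraries did so at other exons. The mle exon from 1867547 to 1868063 had 2.09 and 2.76 signal among the controls, and 2.52 and 1.03 under knockdown. The msl-3 exon from 7116312 to 7116749 had 0.741 and 2.31 among the controls, and 0.541 and 1.30 under knockdown. Control 1 was also the least even library along genes. The part of that in these values was not tested.

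The knockdown comparison set RNA levels of the complex under dTet knockdown beside those of the controls. The 6 genes whose mean signal reached 1 were tested and 0 passed, where 0% of the 6050 genes tested passed (limma on log2(signal + 1), adjusted p under 0.05). At an unadjusted p under 0.05 the counts were 0 of 6 and 245 of 6050. Of the 6, 3 had a positive and 3 a negative log2 change, with a median of -0.02, against a median of -0.03 over all genes tested. In all 7 genes, roX1 included, the control and knockdown values overlapped; over all genes tested, 13.2% had both knockdown values above both controls and 17.4% had both below.

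Log2 changes of the 6 genes lay between -0.11 and 0.10, and each 95% interval spanned 0. roX2 had a log2 change of -0.11 (standard error 0.22, 95% interval -0.62 to 0.40; limma, adjusted p = 0.9995). The interval allows a fold of signal + 1 from 0.650 to 1.32. msl-2 had 0.06 (standard error 0.20, interval -0.40 to 0.51, a fold of 0.758 to 1.43). msl-1 and msl-3 had 0.10 (interval -0.39 to 0.60) and 0.09 (-0.51 to 0.68). mle and mof had -0.09 each, with intervals of -0.60 to 0.42 and -0.68 to 0.50. roX1 did not reach the minimum signal. With no filter its log2 change was -0.18 (interval -0.58 to 0.21, limma, unadjusted p = 0.299, adjusted p = 0.972). All these changes are of signal + 1, and the added 1 shrinks those of genes with low signal. For roX1 it exceeds the mean signal of both groups (0.443 among the controls, 0.269 under knockdown). Its interval therefore does not bound the fold of the signal itself. With 0.1 added in place of 1, the log2 change of msl-3 was 0.15.

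Taken exon by exon, 18 of the 34 exons of these genes were tested and 0 passed, where 0% of 27881 exons passed (limma, smallest adjusted p = 0.9987). The smallest unadjusted p was 0.142, at the 84-bp exon of msl-3 from 7116805 to 7116889. That exon had 1.02 and 1.17 signal among the controls, and 2.98 and 1.91 under knockdown, on 9, 9, 24 and 12 bin reads. All 4 tested roX2 exons, which overlap each other, lay on the lower side, and all 3 of msl-1 on the higher side.

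The sign of each of the 6 changes turned when 1 library was left out. Without control 1 the log2 change was -0.0011 for msl-1, -0.15 for msl-3 and 0.04 for roX2. Without control 2 it was 0.09 for mle and 0.04 for mof. Without knockdown 1 it was -0.04 for msl-2. Without knockdown 2 it was 0.19 for mof and 0.10 for roX2.

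mof had the widest range over the 4 libraries among the tested genes of the complex, 0.56 on the log2(signal + 1) scale. The 3 genes nearest to its profile, by Euclidean distance of mean-centred log2(signal + 1) over 4 libraries, were CG9727 (0.050), CG13163 (0.057) and snoRNA:Me28S-A2113 (0.061). CG9727 had 2.40 and 3.004 signal among the controls, and 3.06 and 1.88 under knockdown, with the same order of libraries as mof. With only 4 libraries such likeness is common: 153 of 6049 genes had a correlation with mof above 0.95.

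Partner genes were described by 3 lists, and 0 members of any list passed, where 0% of all genes tested passed (limma). The NSL complex is another complex that contains mof and binds autosomal as well as X promoters. Of its 6 other subunits tested, 1 was on the higher side and 5 on the lower, with a median log2 change of -0.14 against -0.03 over all genes. dgt1 had 2.30 and 1.38 signal among the controls, and 1.60 and 0.93 under knockdown (log2 change -0.32, standard error 0.28). wds, the WD-repeat subunit, had 7.89 and 6.74 against 5.41 and 7.65, and Rcd5 had 6.08 and 3.04 against 4.43 and 3.195. In each of these 3 the groups overlapped. In nsl1, named after its values were seen, both knockdown values (3.003 and 3.39) lay below both controls (3.48 and 3.63), as in 17.4% of all genes.

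Of 17 chromatin proteins that work with the complex or on the X, 16 were tested, with 10 on the higher and 6 on the lower side and a median of 0.03. Pof, which binds genes of the fourth chromosome, had 2.29 and 2.04 signal among the controls, and 0.985 and 1.39 under knockdown (log2 change -0.54, standard error 0.24; limma, unadjusted p = 0.0527, adjusted p = 0.9995). Its groups did not overlap, as in 17.4% of all genes on that side. Su(var)3-9, a heterochromatin histone methyltransferase, had 1.03 and 1.68 against 1.495 and 2.31. In Pof 283 bp and in Su(var)3-9 350 bp of exon overlap exons of other genes, and reads there cannot be assigned. The most abundant were the gene of heterochromatin protein HP1, with 16.8 and 11.2 against 11.0 and 12.2, and the topoisomerase gene Top2, with 5.54 and 8.30 against 8.69 and 7.62. Both of these differed between the controls by more than between the group means.

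Of 12 regulators of msl-2 and of sex determination, 11 were tested, with 4 on the higher and 7 on the lower side and a median of -0.10. tra, the splicing regulator of the female pathway, had 2.201 and 1.53 signal among the controls, and 0.58 and 1.08 under knockdown. Its log2 change of -0.65 (standard error 0.27) did not pass (limma, unadjusted p = 0.0433, adjusted p = 0.9995). In tra 73 bp of exon overlap exons of other genes, and reads there cannot be assigned. tra2, its partner in splicing, had 2.67 and 2.26 against 2.04 and 0.75 (log2 change -0.59, standard error 0.30). In 4 of the 11 both knockdown values lay below both controls, and in 1 above, beside 17.4% and 13.2% of all genes; named after their values were seen, these are tra, tra2, fl(2)d and snf, and Hrb27C. Unr, which represses msl-2 translation in females, had 33.3 and 22.9 against 25.4 and 22.4. Hrb27C, an RNA-binding protein of the hnRNP family, had 26.6 and 27.2 against 27.3 and 27.8. Both were far above msl-2 itself. Sxl, the female switch gene, whose transcripts are made in both sexes but give full-length protein in females, had 2.65 and 2.88 against 3.38 and 2.01. Its signal therefore does not show which form was present.

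**Figure D3:**
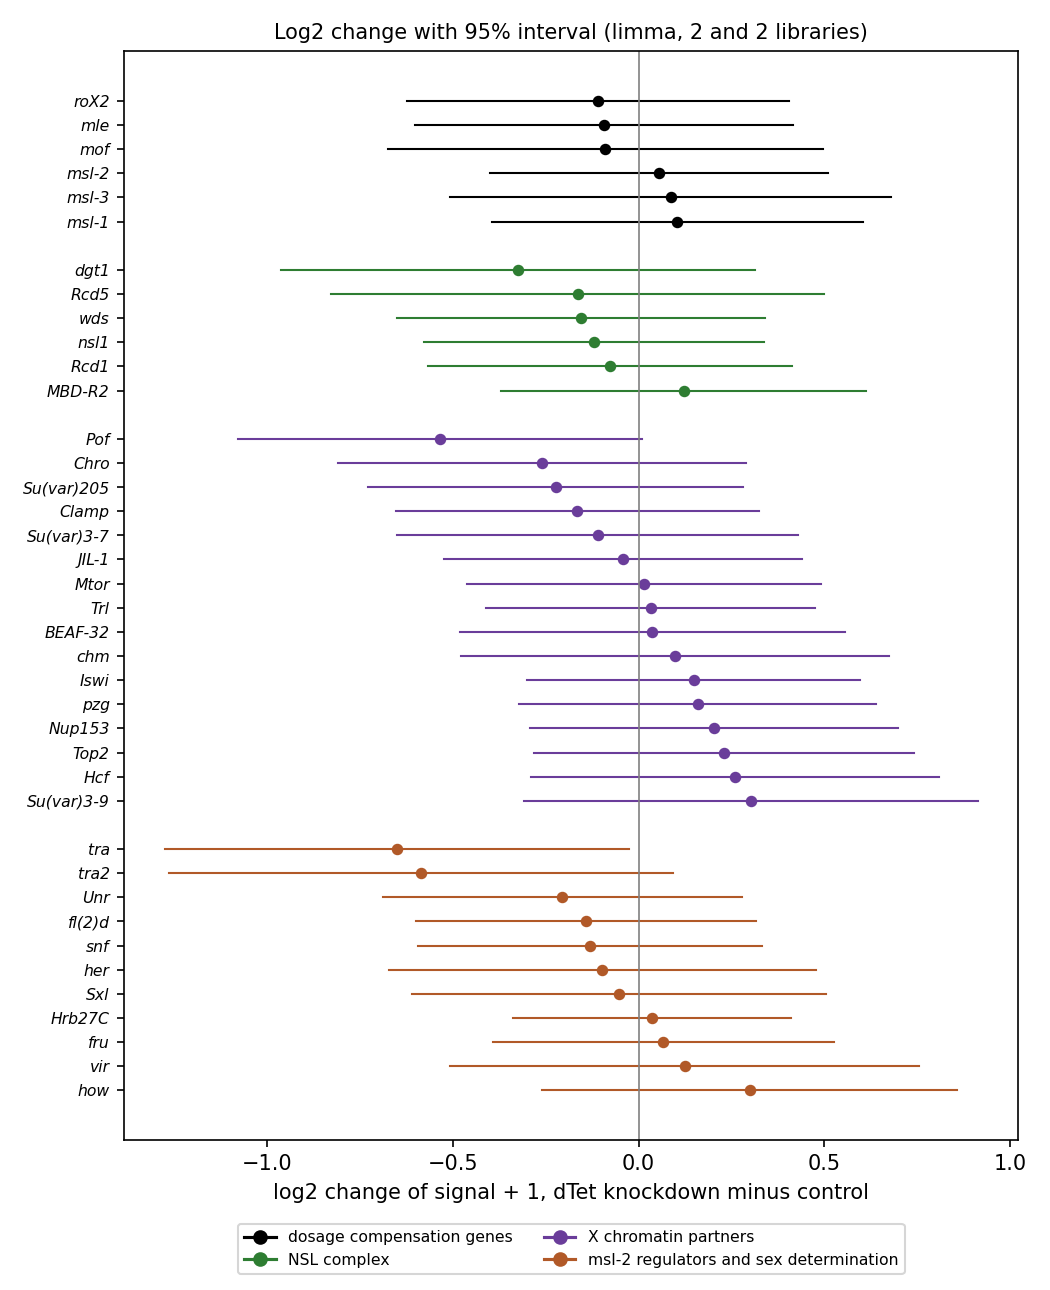
Log2 change of signal + 1, knockdown minus control, for the 6 tested dosage compensation genes and the tested members of the 3 partner lists, as points with 95% intervals from limma (2 control and 2 knockdown libraries). All intervals but that of tra span 0, and after adjustment over all genes none passed.

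The X chromosome, on which the complex acts, was set beside the autosomes as a description. In the controls the 1044 X genes with a control signal of 1 or more had a median of 2.92, against 2.998 for 5010 autosomal genes. Over these genes, kept by control signal alone, the ratio of the medians was 0.970 and 0.985 among the controls. Under knockdown it was 0.974 and 1.03 over the same genes. By arm, autosomal medians of the control mean ranged from 2.92 on 2R to 3.55 on chromosome 4. Between groups, the median log2 change was -0.01 over 1041 X genes and -0.03 over 4978 autosomal genes, with 0 past the threshold in either (limma; 40 and 204 at an unadjusted p under 0.05). Of the 3 genes of the complex on the X, roX2 lay above the X median in each library, roX1 below it, and mof above it in knockdown 1 alone. Genes are not replicates, and these medians carry no test.

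**Figure D4:**
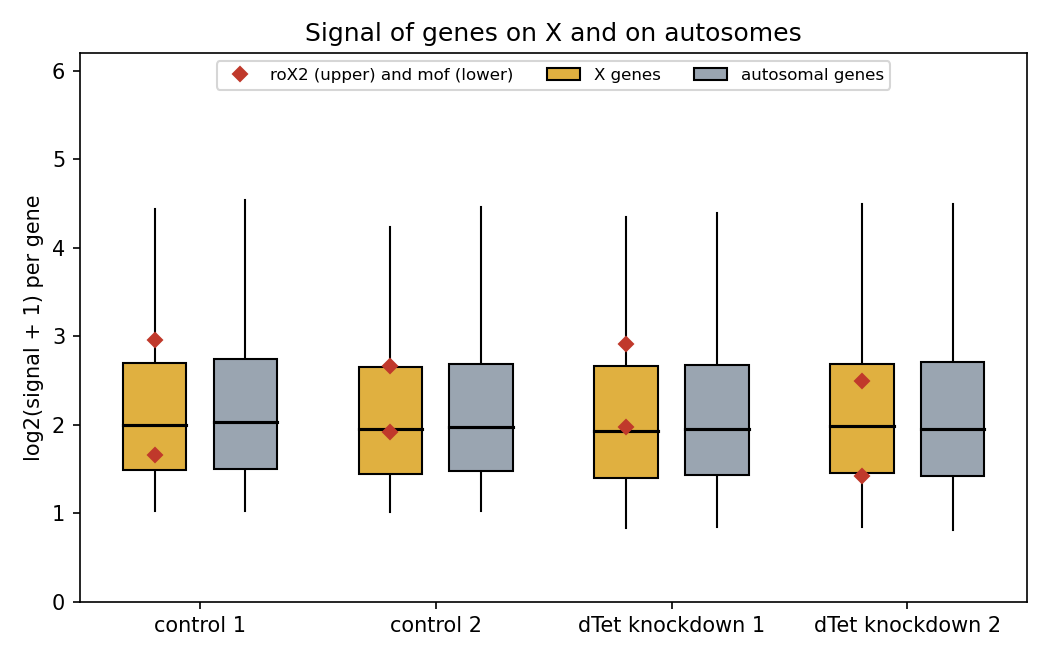
Log2(signal + 1) of X genes and of autosomal genes with a control signal of 1 or more, in each library; boxes run from the 25th to the 75th percentile with the median as a line, and thin lines from the 5th to the 95th. The X and autosomal medians lie close in every library, and the diamonds mark roX2 and mof.

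The hMeRIP lists placed a peak on 2 of these genes, msl-2 and mof, in the dTet-edited sample and on 0 in the yellow-edited sample. The lists hold positions only, with 1 sample per line, so no test of the edit is possible. The msl-2 peak (2L, 3463946 to 3464677, 732 bp) lay wholly in the second exon in genome order, from 44.4% to 63.2% of the gene's span. Of the dTet-list peaks on the chromosome arms, 82.2% were wider. The mof peak (X, 5769848 to 5770849, 1002 bp) lay wholly in its single exon, from 65.6% to 98.8% of its span, and covered 33.3% of it. Its width was near the median of 987 bp for that list. Neither peak touched an exon of another gene.

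Among the 6086 genes with a control signal of 1 or more, 7.74% had an exonic peak in the dTet list, 5.59% in the yellow list and 3.09% in the dTet list alone. In genes of 3 to 6 kb of exon, a class set after the data were seen that holds msl-2 (3.84 kb) and mof (3.01 kb), the shares were 13.1% and 9.31%. Of the X genes, 11.6% had an exonic peak in the dTet list and 9.96% in the yellow list, against 6.99% and 4.71% of the autosomal genes. The members' count was 2 of 6 (33.3%) in the dTet list and 0 of 6 in the yellow list, each of the 2 resting on 1 peak. mle (4.29 kb) and msl-1 (5.02 kb) are longer than mof or msl-2 and carried none.

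For the other genes the nearest peaks were far away and lay in other genes. The peak nearest to roX2 was 27004 bp away in the yellow list, in Drak, and 113 kb away in the dTet list, in bif. For roX1 the distances were 56.1 kb, to a peak in HIP, and 72.6 kb, to a peak in tlk. The nearest yellow peak to mof, in Act5C, was 26.9 kb away, and that to msl-2 was 186 kb away and touched no exon. For msl-1, msl-3 and mle the nearest peak of either list lay 75.4, 237 and 102 kb away, each time in the dTet list. Since the lists give no values, RNA of these genes below the peak threshold cannot be told apart from RNA with no enrichment.

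Among the partner lists, 32 genes had a control signal of 1 or more, and 6 of them (18.75%) had an exonic peak in each line, beside 4.65% of all 6086 genes with an exonic peak in both lists. They were nsl1, the histone kinase gene JIL-1, Top2, the HP1 gene, Hrb27C and fru, named after their peaks were seen. The shares of 18.75% and 4.65% were not matched for exon length or control signal, and their difference was not tested. In each of the 6 the peak of the yellow list met that of the dTet list. For JIL-1, which works beside the complex on the X, the peaks were 423 bp wide in the yellow list (3L, 11073437 to 11073859) and 984 bp in the dTet list. The dTet-list peak was the wider in all 6, as in the lists at large, where the arm peaks had medians of 544 and 987 bp.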

How the data were processed

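PolyA RNA-seq tables of 4 libraries and peak lists of 2 hMeRIP samples were used, and the other 5 of 11 samples were not analysed here. Per the submitters' processing notes, reads were aligned with BWA to dm3 and peaks were called with MACS 1.4; the threshold, the use of input and the annotation are not given in the sources used here. The deposited signal of each exon is the mean reads per 40-bp bin times 1 factor per library, checked on the values: 100% of 27026 to 27963 exons of under 100 bin reads held whole reads within 0.05. The other deposited unit is the start and end of each peak.

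Overlapping exons of a gene were grouped (68582 groups), the longest stood for its group, and the gene signal is their mean weighted by bins. The group test was limma's (version 3.58.1 under R 4.3.3; lmFit, eBayes with a trend, two-sided) on log2(signal + 1), for genes whose mean signal reached 1, with Benjamini-Hochberg adjustment; the code was tested on simulated data. A peak counted if it shared 1 bp with an exon, with peak starts counted from 1 and exon positions as deposited. The genes and lists were chosen with earlier results of these data known. Named genes are the members, the 2 genes of smallest p and the 2 of highest control signal per list, the 3 profiles nearest to the most variable member, dTet, and every peak on a member or nearest to one; markers and Sxl come from the marker list. Genes outside this rule (nsl1, fl(2)d, snf, JIL-1 and fru) were named after their values or peaks were seen. No sequence is printed because none was given. Same-numbered libraries were not treated as pairs, since nothing in the labels ties them.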

Additional observations from a re-analysis of the deposited data

How the results depend on the processing

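Members gave 0 calls under each alternative run (pseudocount 0.1, no filter, no trend, scaled libraries, unshared exons, each library left out, replicate block), and their exons under those run on exons (pseudocount, filter, libraries left out, block). Same-numbered deviations had a correlation of 0.014 over 6050 genes, which cannot show whether the libraries were made as pairs. With the replicate block 0 members, 0 member exons and 0 of 6050 genes passed, and no call changed. Over all genes 0 to 3 passed with 1 library left out (3 without knockdown 1). With 1 library left out, log2 changes ranged from -0.0011 to 0.21 for msl-1, -0.0424 to 0.15 for msl-2, -0.15 to 0.32 for msl-3, -0.28 to 0.0889 for mle, -0.37 to 0.19 for mof and -0.32 to 0.0987 for roX2. List medians ranged from -0.18 to -0.0638 (NSL complex), -0.0371 to 0.0944 (X chromatin partners), -0.23 to -0.0481 (msl-2 regulators and sex determination) and -0.0764 to 0.14 (the complex). The X minus autosome difference in median log2 change ranged from -0.0096 to 0.0534; the X over autosome ratio of median control signal was 0.930 with no filter on low signal, against 0.975. The cause was not tested. Counts of genes with a peak were 0 and 2 under each overlap rule, from 100 bp of exon to 1000 bp of flank. Control levels depend on the exon: msl-2 had 3.10 without the exon that overlaps mir-4971, against 3.996, and roX2 had 16.5 in its highest exon, chosen after the data were seen, against 6.05. With 2 libraries a group and low bin reads for roX1, small changes cannot be seen.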
